A study of Mus musculus with 4 samples.

Results

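The HOXA cluster and its cofactors were followed in leukaemic spleen cells of mice treated with CS1, which the labels call an inhibitor of the RNA demethylase FTO. Rows of the expression table were taken by name for 7 Hoxa genes (Hoxa3, Hoxa4, Hoxa5, Hoxa6, Hoxa7, Hoxa9 and Hoxa10) and 3 cofactor genes (Meis1, Pbx2 and Pbx3), and all 10 were found among 24497 features. All animals carried acute myeloid leukaemia driven by the MLL-AF9 fusion: CD45.2+ primary leukaemia cells from bone marrow had been transplanted into secondary recipients after sub-lethal irradiation with 320 rads. Recipients then received intraperitoneal PBS, or CS1 at 5 mg/kg, on alternate days over 20 days, and poly(A) RNA was sequenced from spleen cells pulled down on beads by their CD45.2, a step that can leave some host cells behind. Each group had 2 libraries, PBS 1 and 2 and CS1 1 and 2. The labels used here name no strain or age, no number of primary leukaemias and no separate animals, so the p-values cover only the spread between these libraries, which may be technical. For CS1 replicate 2 the title and description say CS1 but the treatment entry says CS2, and it was kept as CS1.

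HOXA genes lie in a row on 1 chromosome and encode homeodomain transcription factors, which haematopoietic stem and progenitor cells express and which are switched off as myeloid cells mature. MLL fusion proteins keep the cluster and Meis1 active, and HOXA9 with MEIS1 sustains self-renewal of these leukaemias. MEIS and PBX proteins belong to the TALE class of homeodomain proteins and bind DNA together with HOX proteins, PBX through a short motif in the HOX protein.

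Values are TPM (a share of the library corrected for transcript length), so levels can be compared between genes, while the number of reads behind a value is unknown. The library sums were between 977973 and 986345. Differences were tested with limma on log2(TPM + 1) over the 11866 features that reached 1 TPM in 2 or more libraries, and a call is a Benjamini-Hochberg adjusted p under 0.05 over all of them. Every log2 fold change below is a difference on that scale, CS1 minus PBS, and every adjusted p comes from this test. The contrast was broad, since 67% of tested features were called, 35.3% higher and 31.6% lower in CS1, and the libraries of the groups did not overlap for 84.4%. The median change over all tested features was 0.04, and it was 0.02 once libraries were rescaled by a trimmed mean of M values (TMM).

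Myeloid leukaemia markers were abundant in every library, with all 12 tested, a summed level of 18740 to 18866 TPM in PBS and 12930 to 13010 TPM in CS1, and 4 higher and 7 lower in CS1. The higher ones were the granule genes Elane and Mpo, the stem cell factor receptor gene Kit, and Cd33 (log2 fold change 0.22). The lower ones were Lyz2, Itgam, Csf1r and Cd68, which mark more mature myeloid cells, and also Ptprc (-0.89), Fcgr3 (-0.48) and Spi1 (-0.26). Cebpa did not pass the test. T cell markers summed to 31.6 to 36.0 TPM in PBS and 21.4 to 22.8 in CS1 (3 of 5 tested lower), B cell markers to 68.6 to 70.9 and 44.2 to 45.9 (5 of 6 lower), and NK cell markers to 8.30 to 9.01 and 9.47 to 9.84 (1 of 2 higher, 1 lower). Of the 6 NK cell genes only Klrk1 had a higher mean in CS1 (5.40 against 8.49 TPM), while Gzma fell and Ncr1, Klrb1c, Prf1 and Eomes, all below 1 TPM and not tested, had lower means, with Ncr1 at 0.01 TPM in both CS1 libraries. Erythroid markers summed to 19.0 to 19.5 and 36.2 to 42.9 TPM (1 of 3 higher). The called gene, Hbb-bs, was at 0.01 TPM in both PBS libraries and at 13.5 and 12.2 TPM in CS1 1 and 2. Hba-a1 stood at 26.1 and 0.01 TPM in CS1 1 and 2, and Hba-a2 at 0.01 and 19.3 TPM. Megakaryocyte markers summed to 4.55 to 5.50 and 7.41 to 9.73 TPM (1 of 2 higher, with Pf4 and Ppbp at the lowest listed value). Those of stroma and endothelium summed to 47.1 to 48.4 and 40.1 to 42.4 TPM (1 of 3 higher, 1 lower). Called genes of the T and B cell lists were all lower in CS1, while the myeloid, NK cell and stroma lists held calls in both directions. The erythroid and megakaryocyte lists held 1 call each. Over all tested features 35.3% were called higher and 31.6% lower. The part of these lists in the results below was not tested. Fewer cells of a type and less RNA per cell cannot be told apart in bulk RNA.

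All 10 genes rose in CS1, against 35.3% of all tested features called higher. The 10 genes were chosen with earlier results of these data known, so this comparison is only a description. Their median log2 fold change was 0.71, and in each gene both CS1 libraries lay above both PBS libraries, as in 45.1% of all tested features. The rise was uneven along the cluster. The 5 genes from Hoxa4 to Hoxa9 reached 1.96 to 2.34 times their PBS level, while Hoxa3, Hoxa10 and the cofactors changed less. These differences between genes are read from their intervals and were not tested. Hoxa10 lies beside Hoxa9, but the annotated span of Hoxa3 (52169062 to 52213336) runs over Hoxa4, Hoxa5 and Hoxa6. Only Hoxa5 and Hoxa9 passed a log2 fold change of 1, a size that 5.02% of all tested features reached with a call for a rise. With 0.1 TPM added in place of 1, Hoxa4 (1.03) and Hoxa7 (1.02) passed it as well.

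**Figure D1:**
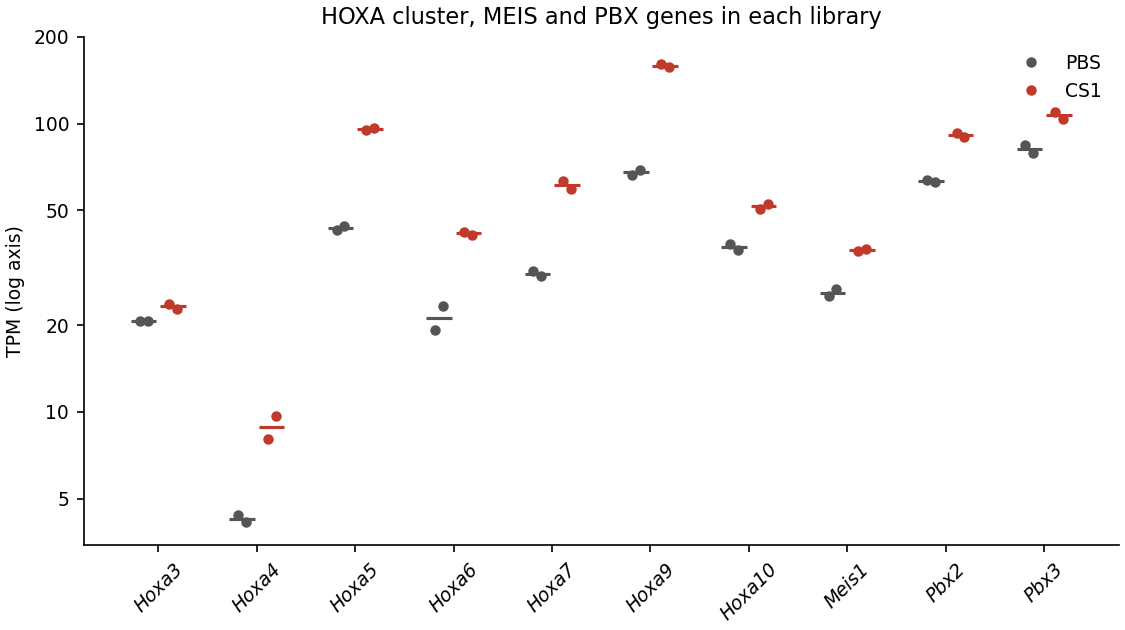
TPM on a log axis for the 10 genes, with a point for each library (grey PBS, red CS1) and a line at each group's mean (n = 2). Both CS1 points lie above both PBS points in every gene, with the widest gap at Hoxa9 and the narrowest at Hoxa3.

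Hoxa9 encodes the HOX protein most closely tied to MLL-rearranged leukaemia. It stood at 66.3 TPM in PBS 1, 69.2 in PBS 2, 160.5 in CS1 1 and 157 in CS1 2. The CS1 libraries lay far above those of PBS and close to each other. Its change was the largest of the 10 (log2 fold change 1.22 ± 0.03, SE, 95% interval 1.14 to 1.30, adjusted p = 4.47e-06) and exceeded that of 96.9% of all tested features. Hoxa9 was also the most abundant Hoxa transcript in both groups, at the 87.0th percentile of tested features by mean level.

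Hoxa5, Hoxa7 and Hoxa9 have each been linked to transformation of myeloid progenitors by MLL fusions. Hoxa5 stood at 42.8 TPM in PBS 1, 44.0 in PBS 2, 94.8 in CS1 1 and 96.2 in CS1 2. The groups were separated by over 50 TPM, and replicates by less than 2 TPM. For Hoxa5 the log2 fold change was 1.12 ± 0.03 (SE, adjusted p = 5.64e-06). Hoxa7 stood at 30.8 and 29.6 TPM in PBS 1 and 2 and at 63.0 and 59.3 TPM in CS1 1 and 2. The gap between the groups was again many times that between replicates, and the log2 fold change was 0.995 ± 0.05 (SE, adjusted p = 2.37e-05).

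Hoxa6 lies between Hoxa5 and Hoxa7 and was the most variable of these genes in PBS, at 19.2 TPM in PBS 1 and 23.2 in PBS 2. It stood at 42.2 and 41.0 TPM in CS1 1 and 2, above both PBS libraries, and its log2 fold change was 0.95 ± 0.09 (SE, adjusted p = 0.000289). Hoxa4 was the lowest member, at 4.38 and 4.15 TPM in PBS 1 and 2 and 8.02 and 9.69 TPM in CS1 1 and 2. Its replicates differed more in CS1 than in PBS, yet the groups stayed apart (log2 fold change 0.90 ± 0.11, SE, adjusted p = 0.000915). At this level the added 1 TPM shrinks the change, which was a ratio of 2.08 on the TPM scale.

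Hoxa10, next to Hoxa9 on its 5′ side with 107 bases between the annotated genes, rose less. It stood at 38.3 and 36.3 TPM in PBS 1 and 2 and at 50.7 and 52.7 TPM in CS1 1 and 2. The 95% interval of its log2 fold change, 0.35 to 0.57, lay below that of every gene from Hoxa4 to Hoxa9, whose lowest bound was 0.62 (log2 fold change of Hoxa10 0.46 ± 0.04, SE, adjusted p = 0.000316). Hoxa9 stood at 1.73 and 1.91 times the level of Hoxa10 in PBS 1 and 2 and at 3.17 and 2.98 times in CS1 1 and 2.

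Hoxa3, the member whose annotated span reaches lowest on the chromosome, showed the smallest change. It stood at 20.6 and 20.7 TPM in PBS 1 and 2 and at 23.6 and 22.8 TPM in CS1 1 and 2. The CS1 libraries were higher by a margin of about 2 TPM, a log2 fold change of 0.16 ± 0.05 (SE, 95% interval 0.03 to 0.29, adjusted p = 0.0347) that exceeded that of 61.0% of all tested features. This call was lost without any single library (adjusted p = 0.105 without PBS replicate 1, 0.0995 without PBS replicate 2, 0.138 without CS1 replicate 1 and 0.0665 without CS1 replicate 2). TMM rescaling (0.0531), quantile normalization (0.0885) and the replicate block (0.0587) also ended it, within a range of 0.0287 to 0.138 over its alternatives. Exons of Hoxa3 overlap those of the antisense RNAs Hoxaas2 and Hoxaas3 by 503 and 297 bases, and exons of Hoxa7 overlap those of Hoxaas3 by 586 bases. The sources used here do not say whether counting used strand, so the values of these genes are uncertain to that extent.

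The promoter windows of Hoxa9 and Hoxa3 are shown because these genes marked the ends of the range of change within the cluster. RefSeq windows on GRCm38.p6, from 250 bases before to 50 after an annotated start, were matched for 8 of the 10 genes, without Hoxa4 and Pbx3, and gave 9 windows since Hoxa10 has 2 starts. The Hoxa9 window lies inside the gene's GENCODE M21 span (52223100 to 52231089), so it belongs to an internal start and not to that span's 5′ end. The Hoxa3 window lies between Hoxa6 and Hoxa7. Both sequences below are on the minus strand, written 5′ to 3′. Capitals mark a match to TGACAG, the core that MEIS proteins bind, on either strand.
Hoxa9, chr6:52227321-52227620: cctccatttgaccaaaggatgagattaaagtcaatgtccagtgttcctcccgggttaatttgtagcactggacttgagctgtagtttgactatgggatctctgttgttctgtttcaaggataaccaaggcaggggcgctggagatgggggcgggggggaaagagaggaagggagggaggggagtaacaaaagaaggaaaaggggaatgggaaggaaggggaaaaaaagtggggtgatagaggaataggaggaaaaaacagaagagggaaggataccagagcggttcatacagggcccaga
Hoxa3, chr6:52213018-52213317: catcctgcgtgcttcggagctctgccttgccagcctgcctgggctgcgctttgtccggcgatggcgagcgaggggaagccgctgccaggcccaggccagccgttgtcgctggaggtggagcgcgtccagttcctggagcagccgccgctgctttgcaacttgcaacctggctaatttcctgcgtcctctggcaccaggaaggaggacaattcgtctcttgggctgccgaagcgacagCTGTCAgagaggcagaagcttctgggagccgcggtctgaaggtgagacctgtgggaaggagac
TGACAG was found in 1 of the 9 windows, that of Hoxa3, where its reverse complement starts at base 238, and in 19.2% of all 32851 RefSeq windows of this length. TGATNNAT, the form of a joint HOX and PBX site, was searched on both strands and was found in none of the 9 and in 8.85% of all windows. The Hoxa9 window holds 4 CG dinucleotides and that of Hoxa3 20, against 29 in the Hoxa5 window and a median of 7 over all windows. These are descriptions of letters in short windows, and a missing match says nothing of binding elsewhere.

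**Figure D2:**
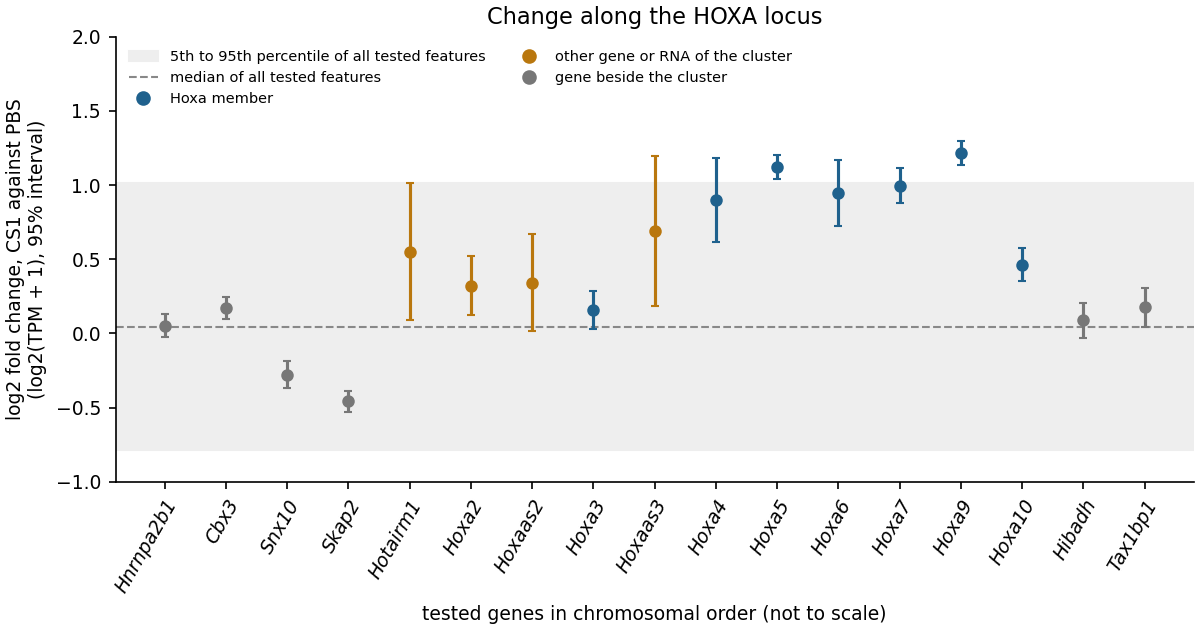
Log2 fold change (CS1 against PBS, on log2(TPM + 1), with 95% intervals) of tested genes at the HOXA locus, in chromosomal order and not to scale; the band spans the 5th to 95th percentile of all tested features, -0.78 to 1.01, and the dashed line is their median, 0.04. Genes from Hoxa4 to Hoxa9 stand near 1, the other cluster genes and RNAs drawn, which leave out Mir196b, between 0.16 and 0.69, and the flanking genes between -0.46 and 0.18.

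The Hoxa members span 71.8 kb of chromosome 6 (52169062 to 52240854, mm10), all on the minus strand, with Hoxa9 at 52223100 to 52231089 by GENCODE M21. Of 10 other genes and RNAs listed for the cluster 4 were tested and 3 were called higher, against 35.3% of all tested features. Hoxa2, a hindbrain patterning gene next to Hoxa3, stood at 8.88 and 9.31 TPM in PBS 1 and 2 and at 11.1 and 12.2 TPM in CS1 1 and 2 (log2 fold change 0.32, adjusted p = 0.0145). The Hoxa2 call was lost without PBS replicate 1 (0.0659), without CS1 replicate 2 (0.0747) and after quantile normalization (0.0907).

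Of the noncoding RNAs of the cluster, Hotairm1 and Hoxaas3 differed widely between replicates. Hotairm1, an antisense RNA of the cluster that is induced during myeloid maturation, stood at 15.9 and 23.5 TPM in PBS 1 and 2 and at 25.9 and 32.1 TPM in CS1 1 and 2. The groups were apart by less than replicates were (log2 fold change 0.55 ± 0.19, SE, adjusted p = 0.0419). Without PBS replicate 1 the Hotairm1 value fell to 0.28 (adjusted p = 0.132) and without CS1 replicate 2 to 0.40 (0.173). The Hotairm1 call was also lost with TMM rescaling (0.0512), quantile normalization (0.0603), no filter on low values (0.126) and the variance trend off (0.104). Hoxaas3 went from 7.17 and 4.85 TPM to 11.9 and 8.64 TPM (adjusted p = 0.0264), a call lost without PBS replicate 2 (log2 fold change 0.45, adjusted p = 0.109) or CS1 replicate 1 (0.48, 0.118), with quantile normalization (0.0744), with no filter (0.0906) and with the trend off (0.0683). Hoxaas2 went from 2.63 and 2.29 TPM to 3.72 and 3.07 TPM and did not pass (adjusted p = 0.0628), but did with the trend off (0.0461), and its log2 fold change of 0.34 was 0.0946 after quantile normalization. Hoxaas2 and Hoxaas3 share exon bases with a Hoxa gene on the opposite strand. After quantile normalization none of the 4 tested genes and RNAs was called, and after TMM rescaling Hoxa2 (0.0205) and Hoxaas3 (0.0299) were.

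Both sides of this stretch were close to silent. Hoxa13, Evx1 and Hottip, past Hoxa10, and Halr1, beyond Hotairm1 on the other side, were listed at 0.01 TPM, the lowest value in the table, in every library, and Hoxa11 did not exceed 0.40 TPM. The other HOX clusters were silent as well, with 26 of 28 genes of the HOXB, HOXC and HOXD clusters at the lowest listed value throughout and no library above 0.16 TPM for the others. Hoxa genes therefore made up nearly all HOX transcripts measured in both groups.

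The mix of Hoxa transcripts differed between the groups. The 7 Hoxa genes summed to 222 and 227 TPM in PBS 1 and 2 and to 443 and 439 TPM in CS1 1 and 2, a ratio of 1.96. Hoxa9 made up 29.8% and 30.5% of that sum in PBS 1 and 2 and 36.2% and 35.8% in CS1 1 and 2. Hoxa5 went from 19.2% and 19.4% to 21.4% and 21.9%. Hoxa10 and Hoxa3 took smaller shares in CS1, at 11.4% and 12.0% for Hoxa10, against 17.2% and 16.0%, and at 5.33% and 5.20% for Hoxa3, against 9.28% and 9.10%. Shares of Hoxa4, Hoxa6 and Hoxa7 overlapped between the groups. With 2 libraries against 2, the exact two-sided permutation test of the summed level and of the Hoxa9 share gave p = 0.333 each, the smallest this design allows.

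**Figure D3:**
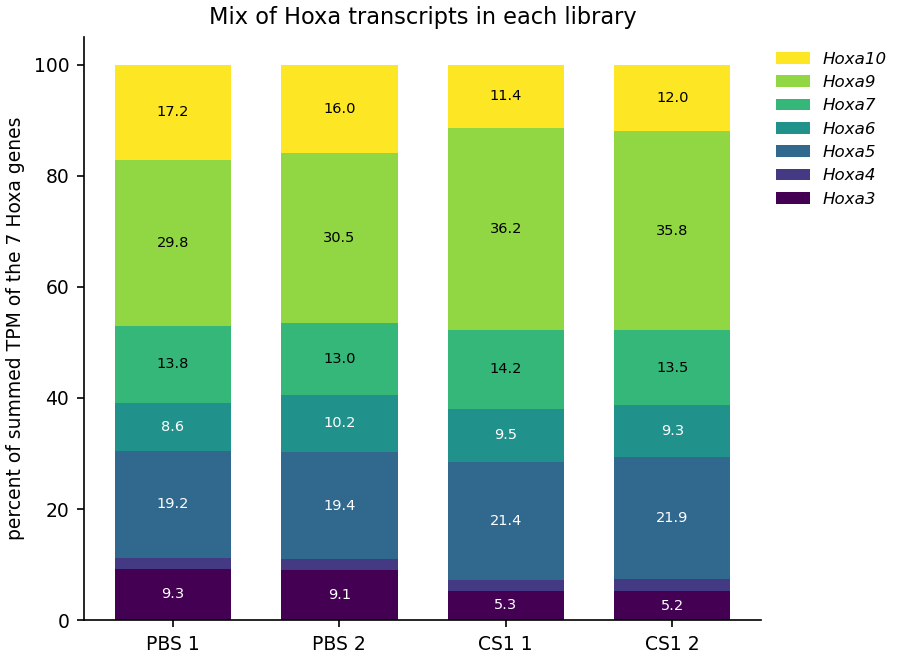
Percent of the summed TPM of the 7 Hoxa genes that each gene contributed, in each of the 4 libraries, with shares above 4% printed. Hoxa9 takes 29.8% and 30.5% in PBS and 36.2% and 35.8% in CS1, while Hoxa10 and Hoxa3 take less in CS1.

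The order of levels changed with the treatment. In PBS, Pbx3 led with a mean of 81.7 TPM, followed by Hoxa9, Pbx2, Hoxa5, Hoxa10, Hoxa7, Meis1, Hoxa6, Hoxa3 and Hoxa4, and only Hoxa6 and Hoxa3 among neighbours in that order had overlapping libraries. In CS1, Hoxa9 led with 159 TPM, followed by Pbx3, Hoxa5, Pbx2, Hoxa7, Hoxa10, Hoxa6, Meis1, Hoxa3 and Hoxa4, and no neighbours overlapped. Hoxa5, Hoxa6 and Hoxa7 each moved up past a gene that rose less.

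Meis1 encodes the TALE cofactor that speeds HOXA9-driven leukaemia. It stood at 25.2 and 26.6 TPM in PBS 1 and 2 and at 36.0 and 36.8 TPM in CS1 1 and 2. The groups were well apart, and the log2 fold change was 0.47 ± 0.05 (SE, 95% interval 0.35 to 0.59, adjusted p = 0.000391). Since Hoxa9 rose more, the Meis1 level per Hoxa9 level was lower in CS1, at 0.224 and 0.234 against 0.38 and 0.384 in PBS. The log2 ratio fell by 0.74, with the same exact permutation p of 0.333 that the design allows at best.

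Pbx3 encodes the PBX protein most used by HOXA9 in leukaemia, and Pbx2 a broadly expressed relative. Pbx3 stood at 84.6 and 78.8 TPM in PBS 1 and 2 and at 110.1 and 104 TPM in CS1 1 and 2. It had the smallest change of the 3 cofactors, 0.38 ± 0.05 as log2 fold change (SE, adjusted p = 0.00082). Pbx2 stood at 63.7 and 62.8 TPM in PBS 1 and 2 and at 92.7 and 90.0 TPM in CS1 1 and 2. Its replicates were close and its groups well apart (log2 fold change 0.52 ± 0.03, SE, adjusted p = 5.56e-05). Exons of Pbx2 overlap those of the neighbouring gene Gpsm3 on the same strand by 227 bases, and Gpsm3 fell (log2 fold change -0.13, adjusted p = 0.00582), a call lost after quantile normalization (0.708) and with the variance trend off (0.0527). The rises of Meis1, Pbx2 and Pbx3, by ratios of 1.31 to 1.44, were smaller than those from Hoxa4 to Hoxa9. The cofactor intervals ended at 0.60 or below, just under the lowest bound from Hoxa4 to Hoxa9, 0.62. After quantile normalization Pbx2 had a log2 fold change of 0.59 and Hoxa4 of 0.72, closer than the 0.52 and 0.90 without it.

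Of 8 other genes listed for the TALE class and its regulators 6 were tested, with 2 higher and 2 lower. Over all tested features 35.3% were called higher and 31.6% lower. Pbxip1 encodes a PBX-interacting protein that hinders binding of HOX and PBX proteins to DNA, and is not itself a homeodomain protein. It stood at 152 TPM in PBS 1, 151 in PBS 2, 76.5 in CS1 1 and 77.1 in CS1 2. This was the largest fall of the list, -0.97 ± 0.03 as log2 fold change (SE, adjusted p = 4.47e-06), and only 2.76% of all tested features had a lower value. Per TPM of Pbx2, Pbx3 and Pbx4 together there were 1.02 and 1.06 TPM of Pbxip1 in PBS 1 and 2, and 0.367 and 0.39 in CS1 1 and 2.

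Pknox1 encodes PREP1, which competes with MEIS1 for PBX partners. It fell from 32.3 and 33.3 TPM to 24.5 and 25.8 TPM (log2 fold change -0.37 ± 0.05, SE, adjusted p = 0.00118), so that it exceeded Meis1 in both PBS libraries and lay below it in both CS1 libraries. Tgif1, a TALE repressor, rose from 26.9 and 22.3 TPM to 31.4 and 31.9 TPM (log2 fold change 0.36, adjusted p = 0.014), a call lost without CS1 replicate 2 (0.0558) and with no filter on low values (0.0521). Pbx4 rose from 1.12 and 1.80 TPM to 5.36 and 3.98 TPM (log2 fold change 1.21, adjusted p = 0.0024) and stayed far below Pbx2 and Pbx3. Tgif2 and Meis3, both under 3 TPM, did not pass (adjusted p = 0.444 and 0.825). Meis2 was at the lowest listed value throughout, and Pknox2 did not pass the filter on low values.

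**Figure D4:**
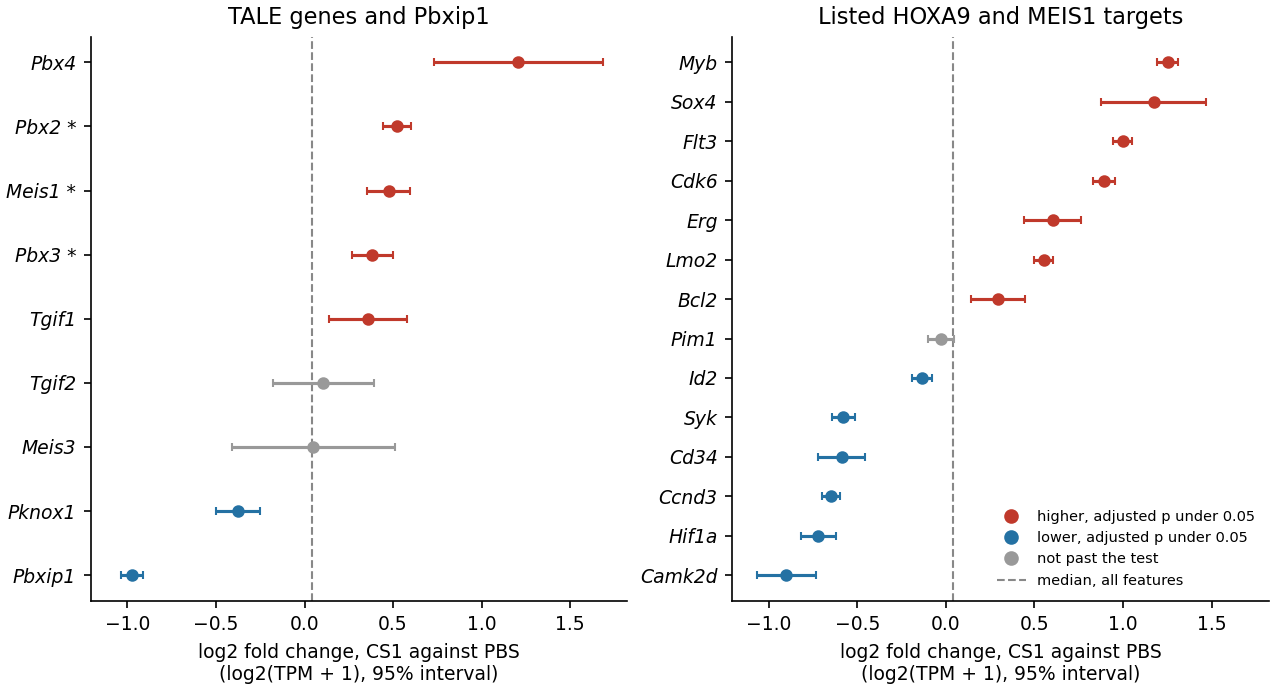
Log2 fold change (CS1 against PBS, on log2(TPM + 1), with 95% intervals) of TALE genes with Pbxip1 (left, asterisks mark Meis1, Pbx2 and Pbx3) and of listed HOXA9 and MEIS1 targets (right), coloured by the test, with the median of all features, 0.04, dashed. Pbxip1 and Pknox1 lie on the side opposite to Meis1, Pbx2 and Pbx3, and the targets divide into 7 higher and 6 lower.

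Genes known from other work as targets of HOXA9 or MEIS1 did not move in 1 direction. Of 16 listed, 14 were tested, with 7 higher and 6 lower, against 35.3% and 31.6% of all tested features. The median log2 fold change of these targets was 0.13, against 0.04 over all. Flt3, the receptor kinase gene, stood at 187 and 189.7 TPM in PBS 1 and 2 and at 378 and 376 TPM in CS1 1 and 2 (log2 fold change 1.00). Lmo2, a partner of haematopoietic transcription factors, rose from a mean of 272 ± 3.54 to 399 ± 3.84 TPM (SD, n = 2 each, log2 fold change 0.55, adjusted p = 1.38e-05).

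Cdk6, Sox4, Erg, Bcl2, Syk, Hif1a, Camk2d, Cd34 and Pim1 are named after their values were seen. Myb, a progenitor transcription factor, went from 89.4 and 89.5 to 215 and 214 TPM, and Cdk6, a kinase of the G1 phase, from 107 and 107 to 201 and 199 TPM. Sox4, Erg and Bcl2 had log2 fold changes of 1.17, 0.60 and 0.30. On the other side, Ccnd3, which encodes cyclin D3, fell from 549 and 552 TPM to 348 and 354 TPM (log2 fold change -0.65, adjusted p = 6.53e-06). Syk, a kinase gene linked to MEIS1 in leukaemia, went from 304 and 293 TPM to 199.6 and 199.7 TPM, a log2 fold change of -0.58 (adjusted p = 1.93e-05). Hif1a, Camk2d and the progenitor marker gene Cd34 had log2 fold changes of -0.72, -0.90 and -0.59. Id2 was called lower at -0.14 but not after quantile normalization, where its value was 0.0124, and Pim1 did not pass.

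Among 24 listed regulators of the cluster 10 were higher, 5 lower and 9 not past the test, with a median log2 fold change of 0.07. The shares over all tested features were 35.3% higher and 31.6% lower. The 4 most abundant were Npm1, a nucleolar chaperone, Cdk9, the kinase of the elongation complex that MLL fusions recruit, the Polycomb partner Jarid2 and the insulator protein gene Ctcf. Npm1 rose from 502 ± 3.90 to 557 ± 5.86 TPM and Cdk9 from 119 ± 1.33 to 148 ± 6.10 TPM (SD, n = 2 each, adjusted p = 0.00128 and 0.00056). Jarid2 and Ctcf did not pass (adjusted p = 0.12 and 0.283), and after quantile normalization Jarid2 did, with a log2 fold change of 0.14 against 0.06 (adjusted p = 0.0114).

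Tested genes beside the cluster on chromosome 6 had log2 fold changes between -0.46 and 0.18. Of 8 listed 6 were tested, with 2 higher and 2 lower, against 35.3% and 31.6% of all tested features. Their median log2 fold change was 0.07, against 0.04 over all. Skap2, an adaptor protein gene 157 kb from Hoxa3, fell from 367 and 379 TPM to 277 and 266 TPM (log2 fold change -0.46, adjusted p = 6.09e-05). Cbx3, a heterochromatin protein gene further along, rose slightly (0.17, adjusted p = 0.00388), and Hnrnpa2b1 did not pass (0.05, adjusted p = 0.194) except after quantile normalization (0.18, adjusted p = 0.00306). Tax1bp1, on the far side of Evx1, rose by 0.18 (adjusted p = 0.027), a call lost without PBS replicate 1 (log2 fold change 0.0958, adjusted p = 0.052), CS1 replicate 1 (0.0873) or CS1 replicate 2 (0.078), with no filter (0.0842) and with the trend off (0.0905).

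The features most like Hoxa9 were ranked by the distance between log2 values centred on each feature's mean, over the 4 libraries and 9306 features of at least 5 TPM on average. The nearest were Prss16, a thymic serine protease gene, at a distance of 0.0101, Cchcr1 at 0.0555 and Myb at 0.0558. For Meis1 they were Ncapd2, a condensin gene, at 0.0166, Larp1b at 0.0191 and the ribosomal protein gene Rpl21 at 0.0215. Within a distance of 0.1 there were 28 features for Hoxa9 and 335 for Meis1.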

How the data were processed

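The authors deposited 1 table with a column for each of the 4 libraries, whose values were taken as TPM from column sums between 977973 and 986345, decimals and the mention of RSEM, since neither header nor labels name the unit. STAR, RSEM and mm10 are named, without versions or roles, per the submitters' processing notes. The sources used here give no annotation, strand setting or filter. The lowest listed value is 0.01. Read depth is unknown, so no counting interval is given, and whether replicates differ by more than sampling noise could not be tested.

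Groups came from the sample titles. Values were transformed to log2(TPM + 1) and compared by a two-sided limma test that lets variance depend on level (limma 3.58.1 under R 4.3.3). The test was run on simulated data with 200 changed features. Far more were called here, so that check does not cover so broad a contrast. Alternatives were a pseudocount of 0.1, no filter, TMM rescaling, the variance trend off, quantile normalization, each library left out, and the replicate number as a block. Sums and ratios were tested by exact permutation over 6 splits. GENCODE M21 (GRCm38, which is mm10) gave positions and exons. Genes named were the 10 members, tested genes of the other HOX and TALE lists, the 4 most abundant of each list of targets, regulators and neighbours, and the 3 features most like Hoxa9 and Meis1, and others are said to be named after their values were seen. The members and lists were chosen with earlier results of these data known. Some genes of the HOX and TALE lists are not reported here.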

Additional observations from a re-analysis of the deposited data

How the results depend on the processing

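With 10 alternatives, 9 or 10 of the 10 members were called higher in each, and the only call lost was that of Hoxa3. The rescaled change in the summed Hoxa level was 0.95 against 0.97 on the log2 scale, and leaving out each library gave 0.96 to 0.99, with 5.56 to 6.20 percentage points for the Hoxa9 share (5.88 with all libraries). Replicate numbers did not pair the libraries (r = 0.02 across features between the deviations of same-numbered libraries). With the replicate block 9 members were called and 7750 features in all, against 7949, and Hoxa3 had a log2 fold change of 0.16 (adjusted p = 0.0587). Of the other HOXA genes and RNAs 3 were called higher, 2 with TMM rescaling and 0 with quantile normalization. Quantile normalization also turned the sign of Meis3 (-0.24), Tgif2 (-0.15), Id2 (0.0124), Ctcf (0.0192), Hspa5 (0.10) and Pim1 (0.0676), and of these only Hspa5 was then called (adjusted p = 0.00789). Over the libraries left out in turn Meis3 went from -0.18 to 0.28, turning without PBS replicate 2, and Mir196b from -1.29 to 0.50, turning without PBS replicate 2 (0.0726) or CS1 replicate 1 (0.50). The causes were not tested. Unknown depth limits what low genes such as Pbx4 and Meis3 can show, and 2 libraries a group limit every exact test.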

Other observations

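Of 10 genes listed beside Meis1, Pbx2 and Pbx3, 9 were tested, with 2 higher and 4 lower and a median log2 fold change of -0.13. Among all tested features 35.3% were called higher and 31.6% lower. Those listed for Meis1, Spred2 and Etaa1, lie as far as 905 and 926 kb from it. Ager, which encodes the receptor for advanced glycation end products, starts 461 bases past the annotated end of Pbx2 on the same strand and was named after its values were seen. It stood at 10.1 and 8.35 TPM in PBS 1 and 2 and at 50.8 and 53.0 TPM in CS1 1 and 2 (log2 fold change 2.38 ± 0.09, SE, adjusted p = 1.14e-05), the 49th largest rise of 11866. Beyond it Agpat1 fell (-0.21, adjusted p = 0.00253) and Rnf5 did not pass (adjusted p = 0.0534). Hspa5, 399 kb from Pbx3, did not pass either (adjusted p = 0.341). Mapkap1 and Mvb12b lie closer to Pbx3, at 33.6 and 284 kb, and were named after their values were seen. Mapkap1 was called lower (-0.31, adjusted p = 0.00566) and Mvb12b higher (0.49, adjusted p = 0.000478). Rnf5 was called lower without CS1 replicate 2 (-0.18, adjusted p = 0.0165) and after TMM rescaling (-0.15, adjusted p = 0.0374).

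Mllt3, the mouse gene for AF9, the fusion partner in this leukaemia, was named after its values were seen. Values per gene do not tell whether transcripts of the fusion add to those of Mllt3. It stood at 3.44 and 3.67 TPM in PBS 1 and 2 and at 7.84 and 6.72 TPM in CS1 1 and 2 (log2 fold change 0.86 ± 0.11, SE, adjusted p = 0.000974).

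A microRNA gene lies within the annotated span of Hoxa9, and its mature products are shown because Hoxa9 had the largest rise of the members. It lies 5′ of the RefSeq start whose window is shown above, and it was named after its values were seen. Capitals mark the seed, bases 2 to 8, and both sequences are from RefSeq (GRCm38.p6, minus strand).
mmu-miR-196b-5p, chr6:52230129-52230150: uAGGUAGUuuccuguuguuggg
mmu-miR-196b-3p, chr6:52230094-52230115: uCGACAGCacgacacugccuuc
The Mir196b feature, 85 bases that all lie in exons of Hoxa9, was listed at 6.83 and 14.0 TPM in PBS 1 and 2 and at 3.42 and 14.3 TPM in CS1 1 and 2. The groups overlapped and it did not pass (adjusted p = 0.586), although it was called lower without CS1 replicate 2 (log2 fold change -1.29, adjusted p = 0.036). Poly(A) libraries do not measure mature microRNAs, and reads of Hoxa9 and Mir196b cannot be told apart there.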
